A study of Homo sapiens with 6 samples.

Results

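The RNA of 43 interferon-stimulated genes and sensors was measured in U251 cells, an established human glioblastoma line, and compared between wild-type cells (WT, 3 libraries) and cells with CRISPR-Cas9 targeting of the kinase gene NUAK2 (NUAK2-CR, 3 libraries). The members were named by symbol and found in the table of read counts by NCBI gene identifier, and all 43 were among its 28395 genes. The rule for them used gene names and no threshold on a measured value. The genes were chosen with earlier results of these data known, so shares called among them are descriptions only. Both groups were U251MG cells grown in the same serum-containing medium with no added interferon, virus or drug named in the labels. The NUAK2-CR cells had been transduced with lentiviral LentiCRISPRv2 vectors that carried Cas9, a guide against NUAK2 and GFP or mCherry, and cells positive for both colours had been sorted singly and grown out. The labels name no clone, so the 3 NUAK2-CR libraries may be 1 clone or different ones of the 3 clones the study made. The study's methods describe no CRISPR vector or single-cell sort for the WT cells of these libraries, so loss of NUAK2, the vector and clonal history cannot be told apart in any difference below. Nothing in the labels says that the 3 libraries of a group came from separate cultures, and p-values measure the spread between these samples only.

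Type I interferons are secreted when sensors in the cell meet foreign RNA or misplaced DNA. They bind the receptor made of IFNAR1 and IFNAR2, whose kinases JAK1 and TYK2 phosphorylate STAT proteins, and STAT2 joins IRF9 in the complex ISGF3. ISGF3 binds a promoter element called the interferon-stimulated response element (ISRE) and switches on a shared set of antiviral genes, while other STAT dimers bind an element called GAS. Many of these genes are also read at a low, steady level without added interferon, and tumour lines differ widely in that level.

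Reads counted on genes summed to between 29648445 and 55574081 per library, and 14873 genes had enough reads to be tested with edgeR's quasi-likelihood test. Library values are given in the order of replicates 1, 2 and 3. NUAK2 itself, on chromosome 1, had normalized counts of 1926, 1457 and 1580.1 in the 3 WT libraries, against 799, 961 and 849 in the 3 NUAK2-CR libraries, with no overlap (log2 fold change -0.93, standard error 0.11, adjusted p = 1.8e-05). Of 8 marker genes of glioma and astrocyte lines, GFAP, VIM, NES, S100B, CD44 and SOX2 were read in both groups and were lower in NUAK2-CR, and OLIG2 and AQP4 had at most 3 counts in every library. Of 8 leukocyte markers, 5 had at most 3 counts in every library, among them PTPRC and CD3E, and the list's summed normalized counts ran from 668 to 755 in WT and from 204 to 253 in NUAK2-CR, nearly all of it CD68. Summed fibroblast and mural markers ran from 41081 to 42180.2 in WT and from 61147 to 66406 in NUAK2-CR, of 5 genes, with COL1A2, PDGFRB and LUM higher and COL1A1 and RGS5 lower. Most of that sum was COL1A2, and LUM was low, with raw counts of 2, 8 and 9 in WT and 24, 27 and 33 in NUAK2-CR. The 4 endothelial markers summed to between 227 and 308 in WT and between 186 and 201 in NUAK2-CR, with PECAM1 and VWF higher and KDR lower. PECAM1 was near the floor, with raw counts of 2, 0 and 0 in WT and 12, 14 and 14 in NUAK2-CR. VWF was low as well, with 38, 15 and 12 in WT and 53, 46 and 48 in NUAK2-CR. The 5 epithelial markers summed to between 5532 and 6272 in WT and between 6622 and 7208 in NUAK2-CR, with KRT18 higher and KRT8 and KRT19 lower. The part of other cells or cell states in the results below was not tested. In bulk RNA, fewer cells that express a gene and less RNA per cell cannot be told apart.

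Before the values, the promoter element that names this gene set is shown for a few members that later part ways. Promoter windows from RefSeq (GRCh38.p14, 250 bases before to 50 after each start) were found for 32 of the 43 genes, 41 windows in all. The core of the ISRE, searched as GAAANNGAAA and its reverse complement TTTCNNTTTC, was in a window of 22 of the 32 (68.8%), of 4.38% of 27305 genes with a window, and of 3.57% of 35116 windows. The GAS letters, TTCNNNGAA, were in a window of 10 of the 32 (31.2%) and of 9.38% of all genes or 7.66% of all windows, and in 5 of the 41 windows a GAS match overlapped an ISRE match. Each line below is 60 bases upstream of a start, read 5′ to 3′ on the strand of the gene, with the ISRE letters in capitals.
IFITM1 (chr11:313975-314034, plus strand): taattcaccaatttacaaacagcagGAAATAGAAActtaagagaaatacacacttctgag
RSAD2 (chr2:6877607-6877666, plus strand): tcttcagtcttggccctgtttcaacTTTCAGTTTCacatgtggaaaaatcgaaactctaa
ISG20 (chr15:88638922-88638981, plus strand): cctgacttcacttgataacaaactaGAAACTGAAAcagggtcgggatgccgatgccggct
PARP14 (chr3:122680779-122680838, plus strand): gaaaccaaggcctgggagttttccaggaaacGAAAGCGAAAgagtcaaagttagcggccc
SAMD9 (chr7:93118081-93118140, minus strand): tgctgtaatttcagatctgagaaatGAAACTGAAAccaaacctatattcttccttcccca
IFIT1 (chr10:89392495-89392554, plus strand): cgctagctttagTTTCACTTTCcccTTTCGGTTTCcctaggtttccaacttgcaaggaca
OAS3 (chr12:112938414-112938473, plus strand): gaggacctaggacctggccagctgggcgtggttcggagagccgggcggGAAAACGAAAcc
The first 3 belong to genes that were higher in NUAK2-CR, the next 3 to genes that were lower, and OAS3 did not pass the test. Both orientations occur in both directions of change. Among the 13 genes with a window that were higher, 8 had an ISRE match. Of the 10 that were lower, 8 had one, and so did 5 of the 8 that did not pass. No window of XAF1, OAS1, STAT2, RIGI or IFI16 held these letters, which says only that they are not in that stretch.

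As a set the 43 genes did not move one way. Of the 40 tested, 17 were higher in NUAK2-CR at an adjusted p below 0.05, 12 were lower and 11 did not pass. The shares have to be read against a broad difference between these cells: 54.5% of all tested genes passed, 26.3% as higher and 28.2% as lower, against 72.5% of the 40. Since the genes were chosen with earlier results known, the 72.5% is no test of the set. The counts by role and class below rest on few genes each and have to be read beside the same shares. The groups did not overlap for 29 of the 40 genes, and for 61.4% of all tested genes. Past a log2 fold change of 1, which is a doubling, there were 6 genes higher (6.91% of all tested genes) and 3 lower (6.96% of all). Past a log2 fold change of 2 there were 2 higher, IFITM1 and RSAD2 (1.89% of all), and 0 lower, with no gene of the 40 below -2 at any p. In log2 fold change, the median was 0.21 over the 40 genes and -0.01 over every gene tested, and the median of its absolute value was 0.50 and 0.37. CGAS, IRF7 and IFI27 had too few reads to be tested. The plot of fold changes by role shows genes of 1 role on either side of 0.

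**Figure D1:**
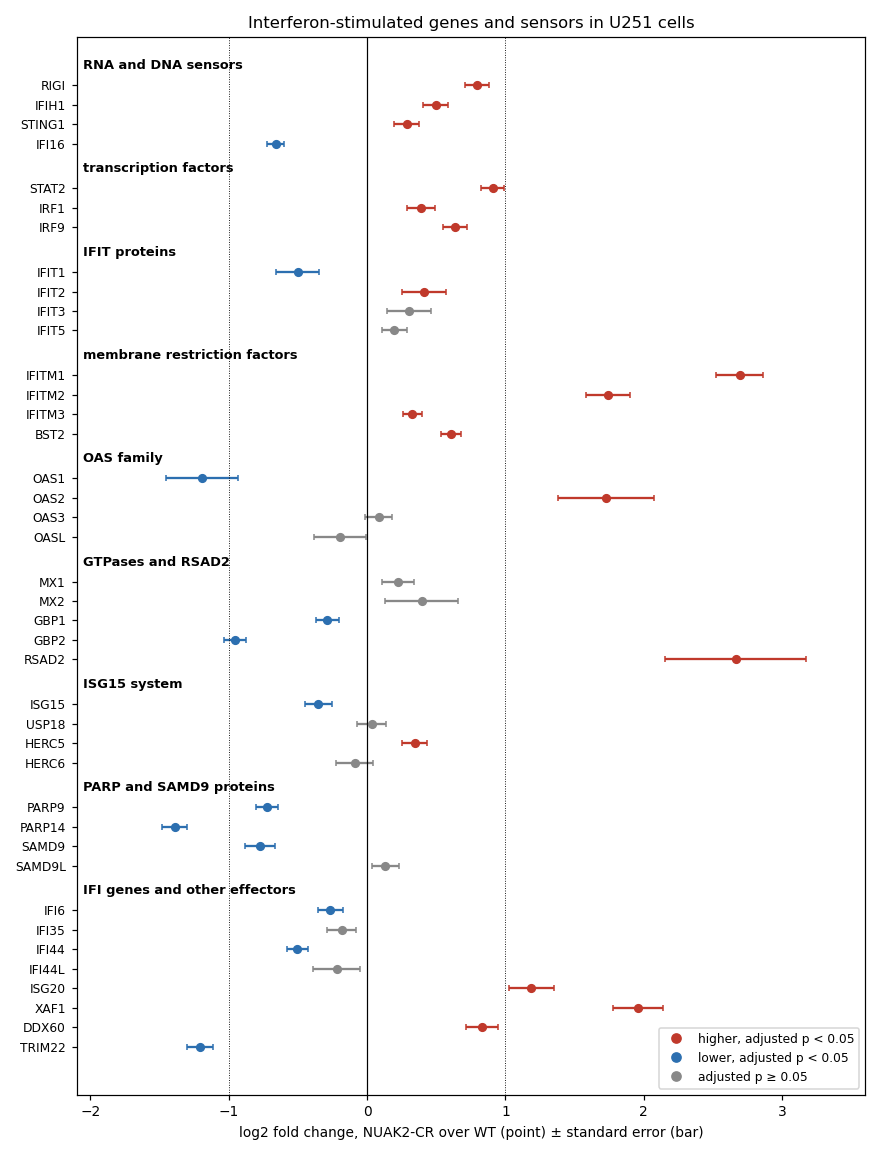
Log2 fold change of NUAK2-CR over WT for the 40 tested genes, grouped by role, with bars for 1 standard error and colour for the edgeR call. Membrane restriction factors and transcription factors lie to the right of 0, PARP and SAMD9 proteins mostly to the left, and the OAS family spans from -1.19 (OAS1) to 1.73 (OAS2).

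The reads of the 43 genes added up to much the same in every library. Summed over the genes, normalized counts came to 46812, 49942 and 47396 in WT, against 46022, 44213 and 45518 in NUAK2-CR. All 3 NUAK2-CR sums lay below all 3 WT sums, while the median gene stood 0.22, 0.22 and 0.04 above the WT mean on the log2 scale in the NUAK2-CR replicates. A few genes with many reads carry the sum, and IFI16, PARP14, IFITM3 and STAT2 are chief among them. Levels of different genes were compared as counts per unit of library size and of transcript length (CPM per kilobase), and on that scale the 40 genes ran from 0.0547 (RSAD2) to 203 (IFITM3) in WT and from 0.351 (RSAD2) to 255 (IFITM3) in NUAK2-CR. In WT, 14 genes were above 10 on this scale and 4 were below 1.

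**Figure D2:**
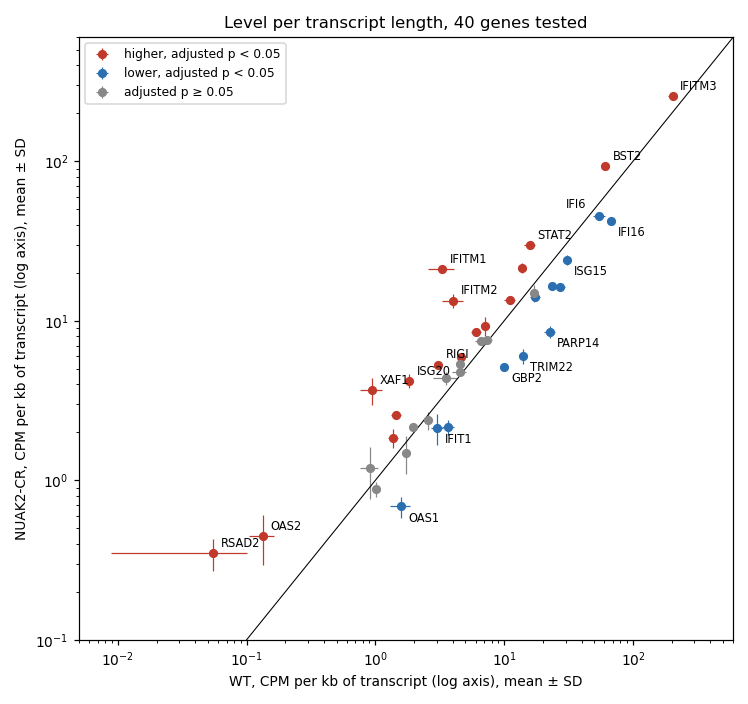
Mean level per transcript length in NUAK2-CR against WT for the 40 tested genes, on log axes, with bars of 1 SD over 3 libraries and a line of equal levels. The highest genes, IFITM3, BST2, IFI16 and IFI6, lie near the line, and the genes farthest above it, IFITM1, RSAD2, XAF1, IFITM2 and OAS2, had 3.31, 0.0547, 0.941, 4.03 and 0.134 CPM per kilobase in WT.

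The sensors start the pathway. Of the genes placed in this role, the 2 RNA sensors of the cytoplasm were both higher in NUAK2-CR. RIGI, which recognizes RNA with an uncapped triphosphate end, had normalized counts of 523, 545 and 531 in the 3 WT libraries, against 917, 884 and 970.5 in the 3 NUAK2-CR libraries. All 3 NUAK2-CR values exceeded all WT values, a 1.73-fold difference (log2 fold change 0.79, standard error 0.086, adjusted p = 7.94e-06). IFIH1, the gene of MDA5, which binds long double-stranded RNA, had 772, 891 and 779 in WT and 1138, 1107 and 1194 in NUAK2-CR, again with no overlap, and rose 1.41-fold (log2 fold change 0.49, adjusted p = 0.000424). The DNA-sensing side was split. CGAS, the enzyme that answers DNA in the cytoplasm, had 0 counts in all 6 libraries, which allows up to 3 counts in each. In the GENCODE gene spans it shares 4052 bases with DDX43 on the opposite strand, which also had a mean of 0 in both groups. The counting ignored strand at its default, so reads of shared bases may have gone to neither gene. STING1, the receptor of the messenger that CGAS makes, had 802, 963 and 947 in WT and 1037, 1155 and 1107 in NUAK2-CR. It rose 1.22-fold (log2 fold change 0.28, adjusted p = 0.0208), a call that was lost without NUAK2-CR replicate 2 (0.25, adjusted p = 0.0864) or replicate 3 (0.28, adjusted p = 0.0599). IFI16, a nuclear DNA-binding sensor and the gene of this role with most reads, had 7499, 7154 and 7161 in the 3 WT libraries, against 4598, 4485 and 4709.7 in the 3 NUAK2-CR libraries. Its groups did not overlap, with WT 1.58 times NUAK2-CR (log2 fold change -0.66, standard error 0.063, adjusted p = 2.63e-06), and the 50 tested genes around it on chromosome 1 had a median of -0.49.

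Of the transcription factors placed in this gene set, STAT2, IRF9 and IRF1 were higher and IRF7 could not be tested. This does not extend to every related factor on the pathway list described below. There IRF5 was lower (log2 fold change -0.75, adjusted p = 0.000546), and so was IRF3. IRF2 did not pass (log2 fold change 0.16, adjusted p = 0.0865). STAT2, the activating arm of ISGF3, had normalized counts of 2829.7, 2701 and 2302 in the 3 WT libraries, against 5179, 4728 and 4814 in the 3 NUAK2-CR libraries. The lowest NUAK2-CR library lay well above the highest WT library, and the difference was 1.88-fold (log2 fold change 0.91, standard error 0.084, adjusted p = 1.84e-06). IRF9, the DNA-binding arm of ISGF3, had 862, 796 and 876 in WT and 1365, 1206 and 1362 in NUAK2-CR, with no overlap and a 1.55-fold rise (log2 fold change 0.64, adjusted p = 4.96e-05). IRF1, which can act on these promoters without ISGF3, had 929, 929 and 981 in WT and 1135, 1149 and 1434 in NUAK2-CR and rose 1.31-fold (log2 fold change 0.39, adjusted p = 0.00511). NUAK2-CR replicate 3 was the highest of the 6 libraries for IRF1. IRF7, which amplifies interferon-alpha production, was nearly unread: its raw counts were 2, 6 and 2 in WT and 0, 0 and 2 in NUAK2-CR.

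The IFIT proteins, which bind viral RNA that lacks the marks of host messages, lie side by side on chromosome 10 and did not move together. IFIT5, the gene of this family with most reads, had normalized counts of 907, 1097 and 969 in the 3 WT libraries, against 1092, 1183 and 1126 in the 3 NUAK2-CR libraries. WT replicate 2 overlapped the NUAK2-CR libraries and the test was not passed (log2 fold change 0.20, standard error 0.09, adjusted p = 0.0851), although it was passed without that library (0.27, adjusted p = 0.0239). IFIT1 had 453, 465 and 545 in WT and 429, 329 and 277 in NUAK2-CR. Every NUAK2-CR library lay below every WT library and IFIT1 fell (log2 fold change -0.50, adjusted p = 0.0165), a call lost without WT replicate 3 (-0.42, adjusted p = 0.0716), NUAK2-CR replicate 2 (-0.47, adjusted p = 0.0592) or NUAK2-CR replicate 3 (-0.36, adjusted p = 0.0766). IFIT2 had 176, 191 and 160.2 in WT and 263, 239 and 201 in NUAK2-CR, and NUAK2-CR replicate 3, the lowest of its group, still lay above all WT values. Its call as higher (log2 fold change 0.41, adjusted p = 0.0466) was lost without any 1 of 5 libraries, with log2 fold changes from 0.34 without NUAK2-CR replicate 1 (adjusted p = 0.139) to 0.47 without WT replicate 2 (adjusted p = 0.0514). It was 0.42 without WT replicate 1 (adjusted p = 0.067), 0.35 without WT replicate 3 (adjusted p = 0.138) and 0.40 without NUAK2-CR replicate 2 (adjusted p = 0.103), and held without NUAK2-CR replicate 3. IFIT3 had 246, 380.1 and 329 in WT and 427, 353 and 395 in NUAK2-CR, with overlap (log2 fold change 0.30, adjusted p = 0.129), and passed without WT replicate 2 (0.45, adjusted p = 0.0405). Within each library, where the scale of the whole library cancels, the log2 ratio of IFIT2 to IFIT1 reads was -1.36, -1.28 and -1.77 in WT and -0.71, -0.46 and -0.46 in NUAK2-CR. The ratios did not overlap and differed by 0.93 (two-sided exact permutation p = 0.1, the smallest that 3 against 3 allows). Of 10 such ratios between neighbouring genes, 8 reached this p and had an adjusted p of 0.125 over the 10 (Benjamini-Hochberg). The pairs were chosen by hand, and no share for other gene pairs was computed. Where the genes of a pair were separate in opposite directions, as IFIT2 and IFIT1 or OAS2 and OAS1, their ratio could not overlap. The ratios therefore describe the same differences and add no separate evidence.

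The membrane restriction factors were all 4 higher in NUAK2-CR, as were 26.3% of all tested genes. The IFITM proteins stiffen membranes against virus fusion and lie within one cluster on chromosome 11. IFITM1 (NCBI gene 8519, chr11:314040-315272 of GRCh38), found mostly at the cell surface, had normalized counts of 65.1, 103 and 80.6 in the 3 WT libraries, against 523, 525 and 549 in the 3 NUAK2-CR libraries. The lowest NUAK2-CR library lay far above the highest WT library, and the means were 83.0 ± 19.2 in WT and 532 ± 14.5 in NUAK2-CR (SD, n = 3 each), a 6.41-fold rise (log2 fold change 2.69, standard error 0.17, adjusted p = 6.77e-08). IFITM2 (NCBI gene 10581, chr11:307816-309395 of GRCh38) had 122, 175 and 160.2 in the 3 WT libraries, against 561, 484 and 471 in the 3 NUAK2-CR libraries. It too was far from overlapping and rose 3.32-fold (log2 fold change 1.74, standard error 0.16, adjusted p = 1.62e-06). IFITM3, which guards endosomes and had the highest level per length of all 40 genes, had 4279, 4940.1 and 4752 in the 3 WT libraries, against 5866, 5679 and 5979 in the 3 NUAK2-CR libraries. The groups were separate but close, at 1.25-fold (log2 fold change 0.33, standard error 0.071, adjusted p = 0.00191), and the 50 tested genes around it had a median of 0.28 on the log2 scale. The log2 ratio of IFITM1 to IFITM3 reads went from -6.04, -5.58 and -5.88 in WT to -3.49, -3.44 and -3.44 in NUAK2-CR, a difference of 2.38 (two-sided exact permutation p = 0.1). Part of the sequence is shared: 7.4% of the 100-base stretches of the IFITM1 transcript also occur in IFITM3, and 8.2% of those of IFITM3 in IFITM1. A small part of the reads of IFITM1 and IFITM3 therefore cannot be assigned. For IFITM2 the share found in another counted gene was 0.0%. Only exact matches were counted, so reads aligned with mismatches between these similar genes were not assessed. BST2, or tetherin, which holds budding virus at the cell surface, had 2163, 2267 and 2438 in WT and 3348, 3565 and 3536 in NUAK2-CR and rose 1.52-fold with no overlap (log2 fold change 0.61, adjusted p = 1.38e-05).

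**Figure D3:**
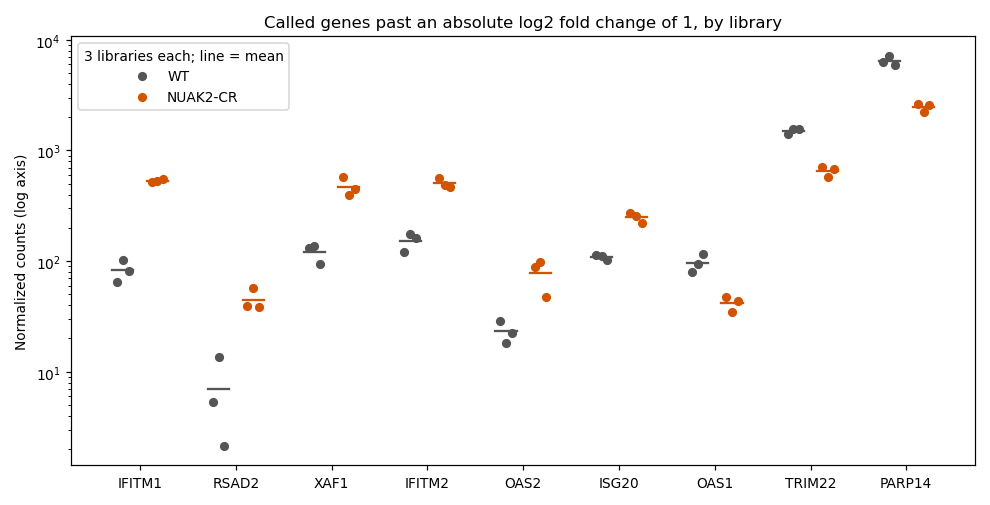
Normalized counts on a log axis for the 9 called genes with an absolute log2 fold change over 1, one point per library (3 WT in grey, 3 NUAK2-CR in orange) and a line at the mean. No gene has overlapping groups, and RSAD2, with 5.31, 13.5 and 2.15 in WT, and OAS2, with 88.9, 97.7 and 47.2 in NUAK2-CR, have the widest spread between libraries.

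The OAS family makes oligoadenylates in answer to double-stranded RNA, and its neighbours on chromosome 12 went opposite ways. OAS1 (NCBI gene 4938, chr12:112906962-112933219 of GRCh38) had normalized counts of 79.7, 94.5 and 115 in the 3 WT libraries, against 47.0, 35.0 and 43.9 in the 3 NUAK2-CR libraries. Every NUAK2-CR library was below every WT library, with WT 2.3 times NUAK2-CR (log2 fold change -1.19, standard error 0.26, adjusted p = 0.00186). OAS2 (NCBI gene 4939, chr12:112978519-113011723 of GRCh38) had 28.6, 18.3 and 22.6 in the 3 WT libraries, against 88.9, 97.7 and 47.2 in the 3 NUAK2-CR libraries. NUAK2-CR replicate 3 was the lowest of its group and still above all WT libraries, and OAS2 rose 3.37-fold (log2 fold change 1.73, standard error 0.35, adjusted p = 0.00108) from a level of only 0.134 CPM per kilobase. OAS3, the member with most reads, had 1282, 1036 and 1034 in the 3 WT libraries, against 1191, 1246 and 1125 in the 3 NUAK2-CR libraries. Its groups overlapped and the test was not passed (log2 fold change 0.09, standard error 0.098, adjusted p = 0.492), but it was without WT replicate 1 (0.20, adjusted p = 0.0441). The log2 ratio of OAS2 to OAS1 reads was -1.48, -2.37 and -2.35 in WT and 0.92, 1.48 and 0.10 in NUAK2-CR. In every WT library OAS1 had more reads than OAS2, in every NUAK2-CR library fewer, and the difference in log2 ratio was 2.90 (two-sided exact permutation p = 0.1). Against OAS3 the OAS2 ratio rose by 1.61, also without overlap (two-sided exact permutation p = 0.1). OASL, a relative that lacks the enzyme activity and aids RIGI, had 124, 118 and 131 in WT and 100.3, 103 and 122 in NUAK2-CR (log2 fold change -0.20, adjusted p = 0.407).

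Among the GTPases and RSAD2, the change in RSAD2 stood beside small or opposite changes. RSAD2 (NCBI gene 91543, chr2:6865885-6898239 of GRCh38), or viperin, makes a nucleotide that stops viral RNA synthesis. Its raw counts were 8, 14 and 2 in WT and 31, 47 and 35 in NUAK2-CR, or 5.31, 13.5 and 2.15 and 39.4, 56.7 and 38.4 after normalization. All NUAK2-CR libraries were above all WT libraries, but both groups are near the bottom of the scale, and the 6.41-fold rise has a wide error (log2 fold change 2.66, standard error 0.51, adjusted p = 0.000775). Its log2 fold change was 3.44 without WT replicate 2 (adjusted p = 0.00035) and 2.30 without WT replicate 3 (adjusted p = 0.00366). CMPK2, the neighbour that is read from the other strand, overlaps RSAD2 over 1079 bases in the GENCODE gene spans. CMPK2 had 75.1, 85.9 and 88.1 in WT and 152, 80.8 and 70.3 in NUAK2-CR (log2 fold change 0.28, adjusted p = 0.43). Their log2 ratio, RSAD2 to CMPK2, was -3.82, -2.67 and -5.36 in WT and -1.95, -0.51 and -0.87 in NUAK2-CR, without overlap (difference 2.84, two-sided exact permutation p = 0.1). The dynamin-like GTPases, which block early steps of virus replication, did not pass. MX1 had 498, 494 and 437 in WT and 611, 574 and 485 in NUAK2-CR (log2 fold change 0.22, adjusted p = 0.125), and MX2 had 95.0, 131 and 123 in WT and 201, 164 and 93.3 in NUAK2-CR (log2 fold change 0.39, adjusted p = 0.228). NUAK2-CR replicate 3 was the lowest of all 6 for MX2, which passed without it (0.66, adjusted p = 0.0285). The MX2 to MX1 log2 ratio overlapped between groups (difference 0.12, two-sided exact permutation p = 0.5). In the GENCODE gene spans MX1 shares 5772 bases with TMPRSS2 on the opposite strand, whose log2 fold change was -3.84. The default setting of the counting ignores strand. If its annotation had the same spans, reads of the shared bases could not be told apart. The guanylate-binding proteins, which coat vacuoles that hold microbes, were lower. GBP1, with most reads of this role, had 1691, 2045 and 1905 in the 3 WT libraries, against 1498, 1579 and 1544 in the 3 NUAK2-CR libraries. Its groups were separate but close (log2 fold change -0.29, standard error 0.082, adjusted p = 0.0105), and the call was lost without NUAK2-CR replicate 1 (-0.25, adjusted p = 0.0575). GBP2 had 1479, 1519 and 1587 in WT and 779.7, 771 and 815 in NUAK2-CR, with WT 1.94 times NUAK2-CR (log2 fold change -0.95, adjusted p = 6.35e-07). The log2 ratio of GBP1 to GBP2 reads was 0.19, 0.43 and 0.26 in WT and 0.94, 1.03 and 0.92 in NUAK2-CR (difference 0.67, two-sided exact permutation p = 0.1).

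ISG15 is a ubiquitin-like tag that is joined to proteins by HERC5 and removed by USP18. HERC5, the gene of this group with most reads, had normalized counts of 651, 609 and 577 in the 3 WT libraries, against 734, 781 and 818 in the 3 NUAK2-CR libraries. Its lowest NUAK2-CR library was above the highest WT library, a 1.27-fold rise (log2 fold change 0.34, standard error 0.092, adjusted p = 0.00711). ISG15 itself fell, from 780.5, 687 and 726 in WT to 596, 598 and 527 in NUAK2-CR, with no overlap (log2 fold change -0.35, adjusted p = 0.0086). USP18, which also damps the interferon receptor, had 558, 514 and 473 in WT and 522, 538 and 524 in NUAK2-CR. The groups overlapped throughout (log2 fold change 0.03, adjusted p = 0.808). HERC6, a relative of HERC5 next to it on chromosome 4, had 343, 395 and 341 in WT and 389, 308 and 319 in NUAK2-CR (log2 fold change -0.09, adjusted p = 0.609). The enzymes of the same tagging cascade, UBA7 and UBE2L6, were both higher and are given with the pathway genes.

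Of the PARP and SAMD9 proteins, 3 of 4 were lower and none higher, where 28.2% of all tested genes were lower. PARP14 (NCBI gene 54625, chr3:122680839-122730840 of GRCh38), which adds ADP-ribose to proteins and had most reads, had normalized counts of 6289.7, 7183 and 5979.8 in the 3 WT libraries, against 2608, 2227 and 2579 in the 3 NUAK2-CR libraries. The highest NUAK2-CR library lay far below the lowest WT library, the means were 6484 ± 625 in WT and 2471 ± 212 in NUAK2-CR (SD, n = 3 each), and PARP14 fell (log2 fold change -1.39, standard error 0.088, adjusted p = 7.18e-08). PARP9, its neighbour on chromosome 3, had 2748, 3339.7 and 3129 in WT and 1860.2, 1905 and 1820.2 in NUAK2-CR, with no overlap and WT 1.65 times NUAK2-CR (log2 fold change -0.72, adjusted p = 9.55e-06). DTX3L, the ubiquitin ligase that works with PARP9 and shares its promoter region, was lower as well (log2 fold change -0.39, adjusted p = 0.000389). The log2 ratio of PARP9 to PARP14 reads was -1.20, -1.10 and -0.93 in WT and -0.49, -0.23 and -0.50 in NUAK2-CR, without overlap and with a difference of 0.67 (two-sided exact permutation p = 0.1). SAMD9, a factor that restricts viruses and cell growth, had 911, 1051 and 867 in WT and 623, 519 and 514 in NUAK2-CR and was lower with no overlap (log2 fold change -0.77, adjusted p = 6.7e-05). Its neighbour and close relative SAMD9L had 548, 516 and 511 in WT and 617, 566 and 547 in NUAK2-CR, with overlap (log2 fold change 0.13, adjusted p = 0.275). The log2 ratio of SAMD9L to SAMD9 reads moved from -0.73, -1.03 and -0.77 in WT to -0.01, 0.12 and 0.09 in NUAK2-CR, a difference of 0.91 without overlap (two-sided exact permutation p = 0.1).

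The 8 remaining effectors tested held 3 higher and 3 lower genes, where 54.5% of all tested genes were called. XAF1 (NCBI gene 54739, chr17:6755447-6775647 of GRCh38), which opposes an inhibitor of cell death, had normalized counts of 130.2, 137 and 94.6 in the 3 WT libraries, against 571, 399 and 446 in the 3 NUAK2-CR libraries. The groups were well apart, and XAF1 rose 3.91-fold (log2 fold change 1.96, standard error 0.18, adjusted p = 1.99e-06). ISG20 (NCBI gene 3669, chr15:88635632-88656483 of GRCh38), an RNA exonuclease, had 114, 111 and 102 in the 3 WT libraries, against 273, 253 and 222 in the 3 NUAK2-CR libraries. No NUAK2-CR library came near the WT libraries, and ISG20 rose 2.29-fold (log2 fold change 1.19, standard error 0.16, adjusted p = 5.84e-05). DDX60, a helicase linked to RIGI signalling, had 343, 343 and 292 in WT and 555, 570.4 and 620.3 in NUAK2-CR and rose 1.78-fold with no overlap (log2 fold change 0.83, adjusted p = 5.56e-05). TRIM22 (NCBI gene 10346, chr11:5689790-5710863 of GRCh38), a ubiquitin ligase with antiviral activity, had 1422, 1552 and 1550.0 in the 3 WT libraries, against 703, 572 and 681 in the 3 NUAK2-CR libraries. Every NUAK2-CR library lay below every WT library, with WT 2.31 times NUAK2-CR (log2 fold change -1.21, standard error 0.095, adjusted p = 4.77e-07). TRIM5, its neighbour on the opposite strand, stood at -0.02 (adjusted p = 0.849). By the gene positions used here TRIM5 ends before TRIM22 starts, while in the GENCODE gene spans the genes overlap. IFI6, a small membrane protein and the gene of this role with most reads, had 1472, 1719 and 1814 in the 3 WT libraries, against 1403, 1330.2 and 1426 in the 3 NUAK2-CR libraries. The groups were separate by a narrow margin (log2 fold change -0.27, standard error 0.088, adjusted p = 0.0222), and the call was lost without WT replicate 2 (-0.24, adjusted p = 0.0582), WT replicate 3 (-0.20, adjusted p = 0.0988), NUAK2-CR replicate 1 (-0.26, adjusted p = 0.0676) or NUAK2-CR replicate 2 (-0.24, adjusted p = 0.0893). IFI44 had 1481, 1500.1 and 1474 in WT and 1086, 1069 and 987 in NUAK2-CR and was lower (log2 fold change -0.51, adjusted p = 0.00012). Its neighbour IFI44L had 349, 396 and 394 in WT and 425, 265 and 289 in NUAK2-CR, with overlap, since NUAK2-CR replicate 1 was the highest of all 6 libraries (log2 fold change -0.22, adjusted p = 0.292). Without that library IFI44L passed as lower (-0.44, adjusted p = 0.0255), and its log2 ratio to IFI44 overlapped between groups (difference 0.26, two-sided exact permutation p = 0.3). IFI35 had 759, 814 and 698 in WT and 621, 616 and 759.7 in NUAK2-CR (log2 fold change -0.18, adjusted p = 0.166). IFI27, often among the most strongly induced genes after interferon, was practically unread, with raw counts of 0, 2 and 2 in WT and 0 in all 3 NUAK2-CR libraries, which allows up to 3 counts in each.

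Since several of these genes sit next to each other, position in the genome was set beside the calls. On chromosome 1, where NUAK2 also lies, 7 of the genes were tested (IFI16, GBP1, GBP2, ISG15, IFI6, IFI44 and IFI44L), and 6 were lower and none higher. The 1541 tested genes of chromosome 1 had a median log2 fold change of -0.43, and the 50 tested genes around each of the 7 had medians from -0.54 (IFI6) to -0.30 (IFI44 and IFI44L). On the other chromosomes 17 of 33 were higher and 6 lower. Over all tested genes 26.3% were higher and 28.2% lower, and the shares called on chromosome 1 alone were not counted. Less the median of its 50 neighbours, GBP1 stood at 0.14, IFI6 at 0.27 and ISG15 at 0.00, and the other 26 called genes kept their sign. Among those 26 some values shrank by this step, IFI16 from -0.66 to -0.17, IFI44 from -0.51 to -0.20, HERC5 from 0.34 to 0.10 and IFITM3 from 0.33 to 0.04. GBP2 went from -0.95 to -0.52. The share that kept its sign was not computed over all called genes, and the part of the chromosome in these differences was not tested. On other chromosomes the median around OAS1, OAS2 and OAS3 was 0.15, around PARP9 and PARP14 -0.06, around XAF1 -0.27 and around TRIM22 0.20. In the GENCODE gene spans IFIT1, IFIT2 and IFIT3 overlap LIPA on the opposite strand, which had a log2 fold change of 0.22 (adjusted p = 0.193).

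**Figure D4:**
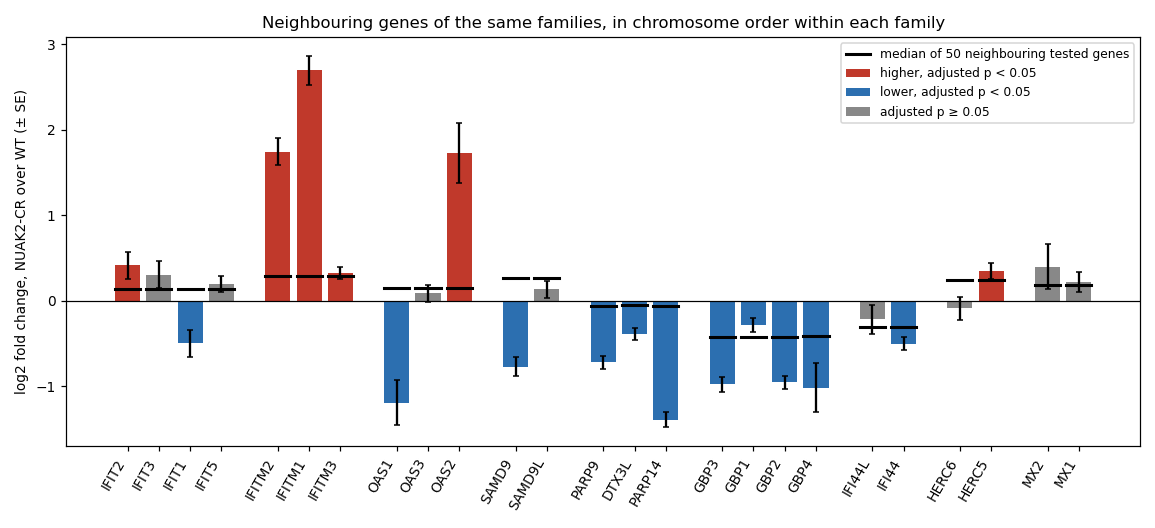
Log2 fold change with standard error for families whose genes lie near each other, in chromosome order, with a black line at the median of the 50 tested genes around each. OAS1 and OAS2, IFIT1 and IFIT2, and SAMD9 and SAMD9L differ within a few genes of each other. The GBP and IFI44 genes of chromosome 1 lie below 0, as do the medians around them. GBP2 (-0.95), GBP3 (-0.98) and GBP4 (-1.02) lie below their neighbour medians of -0.43, -0.43 and -0.41, and GBP1 (-0.29) lies above its own of -0.43.

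The rest of the pathway was read from a list of 89 genes, 70 of them tested. Of these 19 were higher, 21 lower and 30 did not pass, so 57.1% were called beside the 54.5% of all tested genes, with a median log2 fold change of -0.03. None of 13 interferon genes had enough reads. IFNB1, the interferon most non-immune cells make first, had raw counts of 0, 6 and 0 in WT and 0, 0 and 2 in NUAK2-CR, and interferon gamma and the 3 lambda interferons on the list had 0 in all 6. CXCL11, a chemokine with strong interferon control, had 0 counts in all 6 libraries, and CXCL10 had 0 in WT and at most 2 in NUAK2-CR.

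Of 10 genes for receptors and the signalling proteins next to them, 2 were higher (IFNGR1 and IFNGR2, parts of the interferon gamma receptor), 2 were lower (IL10RB and JAK1) and 6 did not pass. IFNAR1 had normalized counts of 2518, 2639 and 2454 in WT and 2309.8, 2359 and 2263 in NUAK2-CR, which did not overlap, but the test was not passed (log2 fold change -0.14, adjusted p = 0.102). IFNAR2 had 507, 638 and 643 in WT and 526, 426 and 527 in NUAK2-CR (log2 fold change -0.27, adjusted p = 0.0909), and passed as lower without WT replicate 1 (-0.37, adjusted p = 0.0113). JAK1 had 6187, 5577 and 5364 in WT and 4837, 4532 and 4596 in NUAK2-CR and was lower (log2 fold change -0.29, adjusted p = 0.00412), on chromosome 1 with a neighbour median of -0.44.

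Of 6 tested negative regulators 1 was higher and 2 were lower, SOCS3 at -0.28 (adjusted p = 0.00432) and PIAS1 at -0.32 (adjusted p = 0.00506). SOCS1, which blocks the receptor's kinases and is induced by cytokines, had normalized counts of 60.4, 56.0 and 65.6 in the 3 WT libraries, against 276, 282 and 293 in the 3 NUAK2-CR libraries. No libraries overlapped (log2 fold change 2.23, standard error 0.17, adjusted p = 3.41e-07). Among 14 tested adaptors and kinases of sensing, 3 were higher and 6 lower. MAVS, the adaptor of RIGI and MDA5, had 8817, 7854 and 7573 in WT and 8522, 8915 and 8872 in NUAK2-CR (log2 fold change 0.12, adjusted p = 0.191), and passed as higher without WT replicate 1 (0.19, adjusted p = 0.0085). TBK1, the kinase downstream, was lower at -0.39 (adjusted p = 0.000998), and so was IRF3, the factor it phosphorylates, at -0.41 (adjusted p = 0.0136). The IRF3 groups, 1742, 1307 and 1353 in WT and 1197, 1187 and 949.6 in NUAK2-CR, were separate, and the call was lost without NUAK2-CR replicate 3 (-0.30, adjusted p = 0.0719).

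Among 14 effectors that act on RNA or nucleotides, 3 were higher and 5 lower. SLFN5, a DNA-binding protein of the Schlafen family, had normalized counts of 710.1, 751 and 682 in WT and 1938, 1501 and 1719 in NUAK2-CR and rose with no overlap (log2 fold change 1.27, adjusted p = 4.61e-07). EIF2AK2, the kinase PKR that halts translation on double-stranded RNA, had 2196, 2289 and 2118 in WT and 2923, 2445 and 2776 in NUAK2-CR and was higher (log2 fold change 0.30, adjusted p = 0.00587). ADAR, which edits such RNA, had 19536, 17132 and 16216 in WT and 13654, 13814 and 13570.3 in NUAK2-CR and was lower (log2 fold change -0.37, adjusted p = 0.00137), on chromosome 1 with a neighbour median of -0.36.

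Of the 26 other interferon-response genes tested, 10 were higher and 6 lower. UBA7, the enzyme that activates ISG15, had normalized counts of 423, 438 and 386 in WT and 890.1, 909 and 952 in NUAK2-CR and rose with no overlap (log2 fold change 1.14, adjusted p = 6.69e-07). UBE2L6, the conjugating enzyme that follows it, was called higher at 0.31 (adjusted p = 0.0193), a call lost without NUAK2-CR replicate 2 (0.28, adjusted p = 0.0717), and ISG15 itself was lower. IDO1, which breaks down tryptophan, had 27.2, 24.1 and 39.8 in the 3 WT libraries, against 166, 106 and 127 in the 3 NUAK2-CR libraries. It was low in WT and higher in every NUAK2-CR library (log2 fold change 2.14, standard error 0.28, adjusted p = 3.97e-05). GBP4 had 72.4, 101 and 113 in WT and 43.2, 61.5 and 36.2 in NUAK2-CR and was lower without overlap (log2 fold change -1.02, adjusted p = 0.00896), as were GBP1 and GBP2 beside it. The plot of the pathway genes shows SOCS1 and IDO1 apart from the rest.

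**Figure D5:**
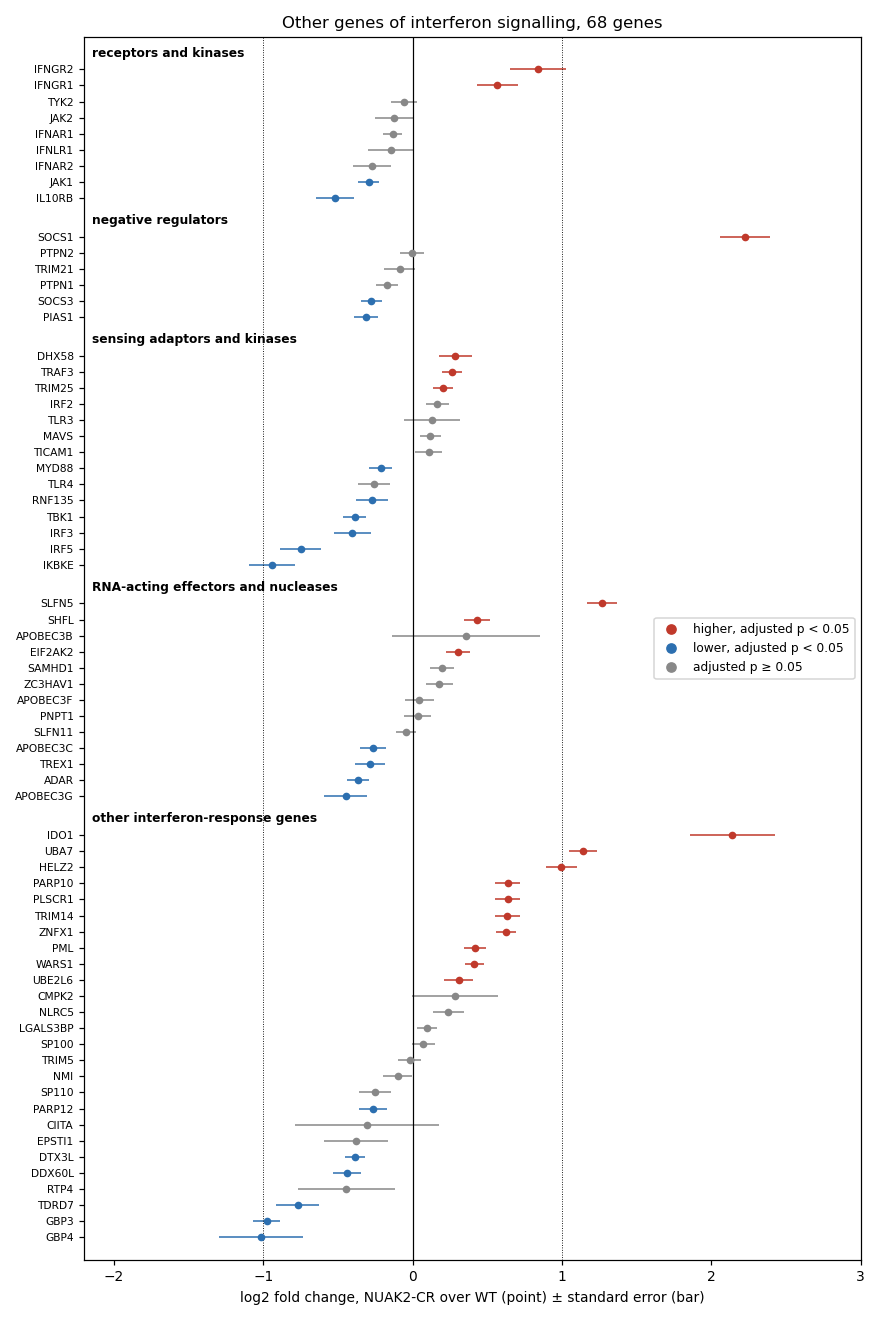
Log2 fold change of NUAK2-CR over WT for 68 tested genes of the pathway list, by class, with bars for 1 standard error and colour for the edgeR call. SOCS1 (2.23), IDO1 (2.14), SLFN5 (1.27) and UBA7 (1.14) lie above 1, GBP4 (-1.02) below -1.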

How the data were processed

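Total RNA from 3 WT and 3 NUAK2-CR samples was made into stranded mRNA libraries and sequenced as paired 100-base reads. The authors used Trimmomatic, HISAT2 against hg38 and featureCounts at default parameters, and deposited raw counts per gene. The default of featureCounts ignores strand, and the annotation is not given in the sources used here. Of 28395 gene identifiers, 27745 were matched to a symbol. Groups came from the labels. The genes and lists were chosen with earlier results of these data known.

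Counts were tested in R 4.3.3 with edgeR 4.0.16 (filterByExpr, TMM, quasi-likelihood F test, Benjamini-Hochberg adjustment over 14873 genes). A call is an adjusted p below 0.05. Every adjusted p in the report is edgeR's unless DESeq2 is named. Biological variation between replicates came to a common coefficient of 0.101. Normalized counts are scaled to the mean effective library size, and a floor of 3 counts covers counting error only. Levels per length used GENCODE canonical transcripts, and overlaps between genes used GENCODE gene spans, not the counting annotation. Scripts were tested on simulated counts. Full statistics were given for called genes past an absolute log2 fold change of 1, the gene of each role with most reads and genes at 0 in a group. JAK1, IFNAR1, IFNAR2, IFNB1, EIF2AK2, ADAR, MAVS, IRF3, TBK1 and pathway genes past 1 were named by the same rule. Other genes of the pathway and marker lists were named after their values were seen, and 2 genes of the pathway list are counted but not reported here.

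Alternatives were DESeq2 1.42.0, RLE and library-size scaling, a filter at 1 count or at 10 counts per library, a prior count of 2, a replicate block, each library left out, and the median of 50 neighbouring genes subtracted. Tables and figures used Python 3.11.15, pandas 2.3.3 and matplotlib 3.10.9.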

Additional observations from a re-analysis of the deposited data

How the results depend on the processing

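With 3 libraries a group and none said to be a separate culture, small changes stand on few samples. Of 29 called genes, 24 kept their call in all 6 fits that left out 1 library, and STING1, IFIT1, IFIT2, GBP1 and IFI6 lost it in at least 1. The same share was not computed over all called genes. With RLE or library-size scaling, or a prior count of 2, every call among the 40 genes held. IFIT2 also lost its call with DESeq2 (0.42, adjusted p = 0.0611) and with no filter beyond 1 count (0.40, adjusted p = 0.0637), and RSAD2 could not be tested with at least 10 counts in every library. The count of genes called among all tested ran from 7190.0 without NUAK2-CR replicate 2 to 8481 without WT replicate 1. Without 1 library, 15 to 18 of the 40 were higher and 10 to 12 lower, and 17 to 23 pathway genes were higher and 16 to 22 lower over all settings. Less the median of 50 neighbouring genes, the median log2 fold change of the 40 genes moved from 0.21 to 0.107, GBP1 turned to 0.145 and IFI6 to 0.27. USP18, not called either way, ranged from -0.026 without WT replicate 3 to 0.103 without WT replicate 1.

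Same-numbered WT and NUAK2-CR libraries did not deviate together (correlations 0.043, -0.035 and 0.048), and not every library correlated best with its own number. No sign of pairing by number was seen, but with 3 libraries a group these correlations cannot show that the samples were unpaired. A replicate block called 8167 genes, 16 of the 40 higher and 12 lower, and IFIT2 lost its call (0.41, adjusted p = 0.05).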
